A study of Sus scrofa with 5 samples.

Results

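The HOX genes encode transcription factors that carry a homeodomain, a DNA-binding fold built of helices of which the third lies in the major groove of DNA. In mammals they sit in the clusters A, B, C and D, and the number in a name gives the paralog group. Within a cluster, low-numbered genes are switched on early and in anterior parts of the trunk and hindbrain, and high-numbered genes late and in posterior parts, so that the set of HOX genes a cell uses tells where along the body axis its tissue lies. The forebrain, the pluripotent epiblast and the inner cell mass are known for using almost none of them, while connective tissue cells keep the HOX set of their place of origin in culture. Here all symbols made of HOX, a cluster letter and a number were taken, which gave 36 of the 30029 genes counted: 11 of cluster A, 8 of B, 9 of C and 8 of D. HOXB4, HOXB9 and HOXD4 were not analysed here.

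The genes were followed in porcine blastoids, embryo models that form from porcine embryonic stem cells (pESCs) without an embryo, and in the pESCs themselves. The 2 blastoid libraries were both made from structures labelled day 6 and iBlastoid medium, picked by hand under the microscope for a cavity and 2 compartments, and read with 10x Genomics single-cell RNA-seq. The methods describe 2 routes, directly in this medium or after a first step in 4FXY medium (4FIXY without IWR1) in which the cells form clusters, and the labels do not name the route of these libraries. The iBlastoid medium held LIF, IL-6 with its soluble receptor, activin A, IGF1, BMP4, bFGF, the WNT pathway compounds CHIR99021 and XAV939, the TGF-beta receptor inhibitor SB431542, Y-27632 and the chromatin drugs DZNep and TSA among its additives. The 3 bulk libraries came from pESCs in 4FIXY medium with activin A, IGF1, IL-6 with its soluble receptor, XAV939, IWR1 and Y-27632, grown on feeder cells of mouse embryos. The methods give parthenogenetic embryos as the origin of the lines, while 1 of the 3 bulk columns carries a name that begins with IVF. The column names also hold a P with a number that is not the same in all 3, which may be the passage and which the labels do not explain, so the SD of the pESC values can include such differences. No untreated blastoids and no embryos were among the libraries used here, and the labels do not say whether the blastoid libraries came from separate cultures, so that every p-value below measures only the spread between these libraries.

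Barcodes with at least 11223 unique molecular identifiers (UMIs) in library 1 and 9805 in library 2 were taken as cells, 7369 and 8175, and 9 barcode sequences occurred as cells in both. The median cell held 29728 UMIs in library 1 and 27588 in library 2. Cells were put into 6 groups by 1 gene each, with at least 200 UMIs of it per 1000000 UMIs of the cell (CPM, the unit of all levels below) and at least 3 UMIs, and into a rest called ungated. The COL3A1 gate, named for a fibrillar collagen, held 716 and 522 cells, the SCRG1 gate 30 and 29, the THSD7B gate 34 and 33, the CRABP1 gate 324 and 600, the GABRP gate 1880 and 1890, the POU5F1 gate 519 and 920, and 3866 and 4181 cells stayed ungated. The marker lists set beside the gates were highest in their own gate in both libraries for 5 mesenchyme genes (1857 and 2151 CPM in the COL3A1 gate against 19.3 to 682 in the others), 6 neural crest and glia genes (SCRG1), 6 sensory neuron genes (THSD7B), 6 anterior neural genes (CRABP1), 7 amnion or trophoblast genes (GABRP) and 5 pluripotency genes (POU5F1). The GABRP list was also high in the COL3A1 gate, at 5727 and 4770 CPM against 10241 and 9839 in its own gate. This was not particular to the COL3A1 gate, as the ungated cells had 4960 and 4770 CPM and the POU5F1 gate 4431 and 3900. The SCRG1 gate had the least, at 474 and 676 CPM. Of 6 hypoblast genes, 2 were called higher in the COL3A1 gate by the edgeR test described below and none lower (21.9% and 12.1% of all genes tested), GATA6 at 154 and 171 CPM and GATA4 at 64.1 and 65.1, while SOX17 was at 0.65 and 0.23 and FOXA2 at 0, and the sum over the list was 332 and 349 CPM there against 50.5 to 315 in the other groups. A gate is therefore named below by its gene and not by a cell type. Doublets were not called, and 207 cells of library 1 and 223 of library 2 passed more than 1 gate.

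The homeobox, the stretch of 180 bases that encodes the homeodomain, is shown for the genes that carry the results. These are 3 genes of the COL3A1 gate, chosen to run along the body axis, and HOXC13. Each of the 3 was the highest there among the genes analysed of its paralog group (2, 4 and 9). HOXC13 was the highest in the GABRP gate in library 1 and the second there, after HOXB2, in library 2. All are taken 5′ to 3′ on the coding strand from the RefSeq annotation of Sscrofa11.1 (susScr11), the build named in the submitters' notes, and capitals mark codons 42 to 58, the third helix.
HOXB2, chr12:24797690-24797869, minus strand: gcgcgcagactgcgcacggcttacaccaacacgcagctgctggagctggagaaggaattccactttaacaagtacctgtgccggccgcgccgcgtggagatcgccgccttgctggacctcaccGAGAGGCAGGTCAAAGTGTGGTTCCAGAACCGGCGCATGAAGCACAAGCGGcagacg
HOXC4, chr5:19267116-19267295, plus strand: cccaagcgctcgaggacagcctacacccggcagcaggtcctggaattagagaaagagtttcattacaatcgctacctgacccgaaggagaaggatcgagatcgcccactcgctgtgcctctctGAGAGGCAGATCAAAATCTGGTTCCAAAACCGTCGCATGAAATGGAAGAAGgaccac
HOXD9, chr15:81925344-81925523, plus strand: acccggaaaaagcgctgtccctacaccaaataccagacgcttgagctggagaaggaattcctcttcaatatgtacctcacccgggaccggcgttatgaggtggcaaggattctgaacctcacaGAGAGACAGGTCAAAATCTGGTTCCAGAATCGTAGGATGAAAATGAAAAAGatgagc
HOXC13, chr5:19157430-19157609, plus strand: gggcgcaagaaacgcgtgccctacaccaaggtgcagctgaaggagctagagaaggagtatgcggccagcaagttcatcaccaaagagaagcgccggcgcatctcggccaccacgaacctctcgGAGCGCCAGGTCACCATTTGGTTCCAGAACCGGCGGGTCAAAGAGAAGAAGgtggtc
The homeoboxes of HOXB2 and HOXC4 had 62.8% of bases in common and those of HOXB2 and HOXD9 66.1%. HOXC13 shared 59.4% of bases with HOXB2 and 52.8% with HOXC4. Over all 36 genes, the 34 pairs of the same paralog group shared a median of 80.0% of bases, with a range from 69.4% to 91.7%, and the 596 other pairs 61.1%, with a range from 47.8% to 93.9%. Within the 51 bases of the third helix, HOXB2 and HOXC13 had 37 in common and HOXC4 and HOXD9 42.

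In Sscrofa11.1 cluster A lies at chr18:45373340-45480306, cluster B at chr12:24784953-24950661 on the minus strand, cluster C at chr5:19151096-19268267 and cluster D at chr15:81893997-81990026. The annotations of 7 of the 36 genes overlap another HOX gene on the same strand (HOXA3, HOXA4, HOXA5 and HOXA6, and HOXD9, HOXD10 and HOXD11), so UMIs between these partners may have been split or dropped by the counting and their levels are uncertain.

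The HOX genes were used mainly by the cells of the COL3A1 gate. Their summed level there was 245 CPM in library 1 and 289 in library 2, a mean of 267 ± 31.1 (SD, n = 2 libraries). In library 1 the next group was the ungated cells with 11.1 CPM, followed by the GABRP gate with 10.0, and in library 2 the GABRP gate came next with 9.41 CPM, followed by the ungated cells with 6.23. The CRABP1 gate, with anterior neural genes, had 7.24 and 4.67 CPM, and the POU5F1 gate, with pluripotency genes, 2.68 and 2.39. The COL3A1 gate was far above all others in both libraries. The ungated cells and the GABRP gate, next in the order, changed places between the libraries and did not differ beyond their spread. The ungated cells were above the CRABP1 gate within each library, while the ranges of these groups over both libraries overlapped.

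The small gates were near the counting limit. The SCRG1 gate held 3 and 4 HOX UMIs in all, or 3.65 and 5.18 CPM. In the THSD7B gate none was seen among 34 and 33 cells, where 3 UMIs, about the upper 95% limit for a count of 0, would be 4.10 and 4.83 CPM. At a gate minimum of 100 CPM in place of 200, with 45 cells in each library, it had 0.84 and 4.26 CPM. Such limits, like the intervals below, cover counting error only.

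Of all HOX UMIs in cells, 5307 of 7578 in library 1 (70.03%) and 3697 of 5300 in library 2 (69.75%) lay in the COL3A1 gate. At least 1 HOX UMI was found in 91.8% of its cells in library 1 (Wilson 95% interval 89.5 to 93.6) and in 94.4% in library 2 (92.1 to 96.1). In the GABRP gate the share was 20.7% and 18.6%, in the ungated cells 13.2% and 8.30%, in the CRABP1 gate 12.7% and 8.83%, and in the POU5F1 gate 7.32% and 4.35%, although its cells were the deepest, with a median of 39186 and 34171 UMIs against 23012 and 20214 in the COL3A1 gate. With every cell thinned to 9000 UMIs, 78.6% and 83.7% of the COL3A1 cells kept a HOX UMI, against 7.82% and 8.10% in the GABRP gate. The thinned share was 6.34% and 3.61% in the ungated cells, 5.25% and 3.50% in the CRABP1 gate and 2.31% and 1.85% in the POU5F1 gate.

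**Figure D1:**
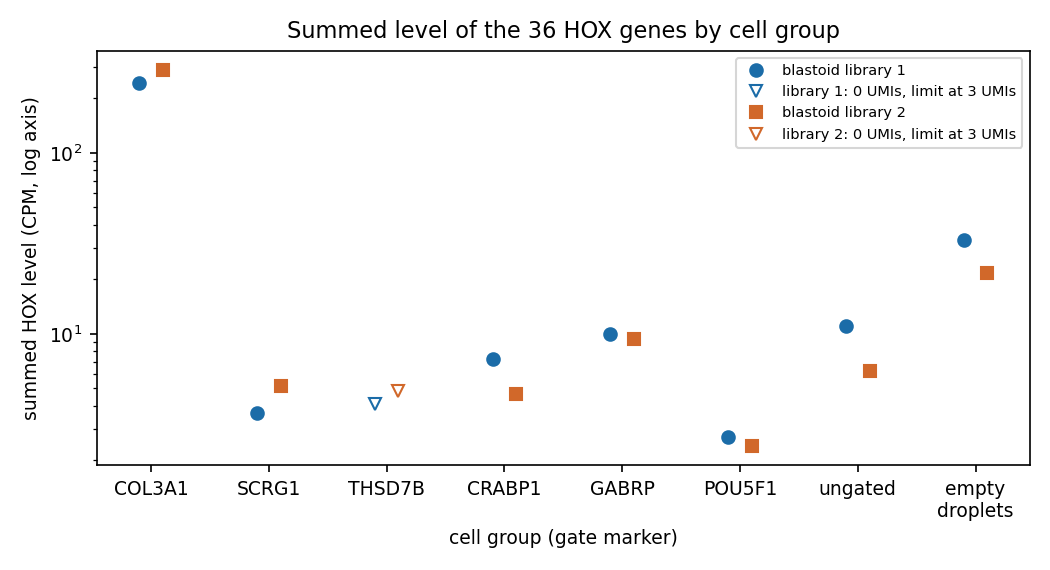
Summed level of the 36 HOX genes in CPM on a log axis, by cell group, with 1 point per library and the empty droplets on the right. The COL3A1 gate stands at 245 and 289, all other cell groups lie at 11.1 or below, the empty droplets at 32.9 and 21.8, and open triangles put the THSD7B gate, with no HOX UMI, at the limit of 3 UMIs.

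Droplets without a cell, with 10 to 100 UMIs, give the RNA that floats free in the suspension. They held HOX UMIs at 32.9 CPM in library 1 (54 UMIs) and 21.8 CPM in library 2 (51 UMIs), close to the 29.8 and 20.0 CPM of all cells together. The summed levels of every group other than the COL3A1 gate lay below that of the empty droplets. The share of free RNA in the UMIs of a cell was not estimated, so its part in these levels was not tested.

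The level followed the COL3A1 level of a cell. In library 1 it was 6.60 CPM in the 4946 cells without a COL3A1 UMI, 58.3 CPM in cells with 100 to 200 CPM of COL3A1, 212 CPM at 500 to 1000 and 370 CPM in the 237 cells at 2000 or more. In library 2 the same bins had 4.11, 109, 255 and 397 CPM. Over the 8 bins it rose at each step in both libraries. Cells that passed both the COL3A1 and the GABRP gate, 108 in library 1 and 50 in library 2, had 73.9 and 77.8 CPM, and cells that passed the COL3A1 gate alone, 595 and 459, had 297 and 329 CPM. The part of doublets in the cells that passed both gates was not tested.

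**Figure D2:**
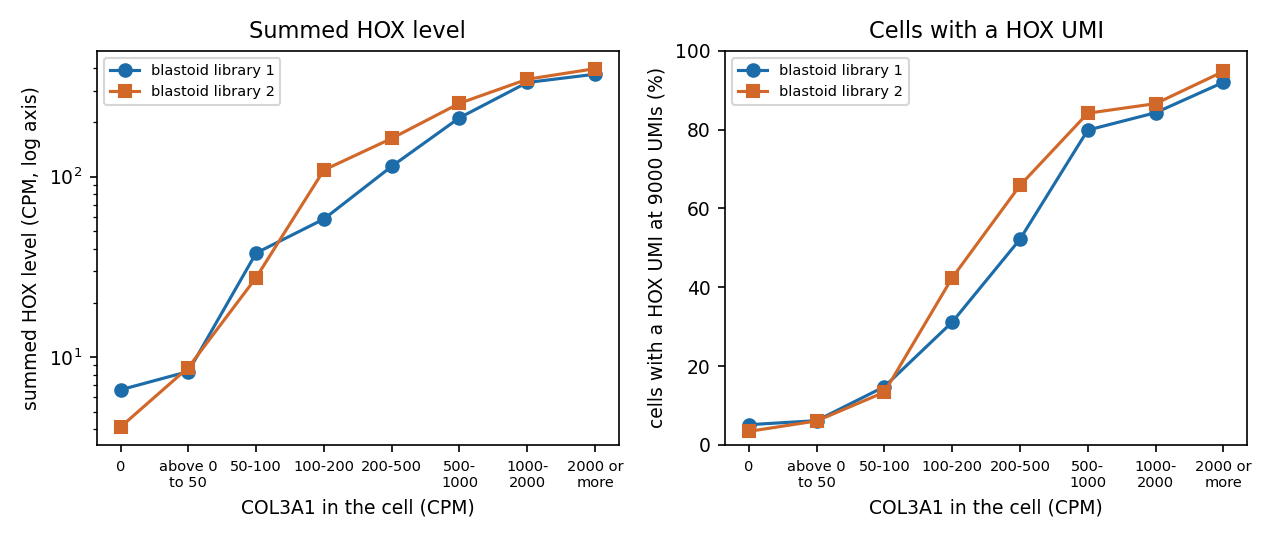
Summed HOX level in CPM on a log axis (left) and share of cells with a HOX UMI after thinning to 9000 UMIs in percent (right), by bin of the cells' COL3A1 level in CPM, 1 line per library. On the left the line of library 1 runs from 6.60 to 370 and that of library 2 from 4.11 to 397, and on the right the lines run from 5.14% to 92.0% and from 3.44% to 94.7%, with no fall at any step.

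Among the 36 genes, 2 had no UMI in any cell (HOXA6 and HOXB13), 9 had under 20 UMIs over both libraries, and 14 had at least 100. Of these 14, 11 had over 50% of their UMIs in the COL3A1 gate in both libraries, and HOXC8 and HOXC13 were among the other 3. A level of at least 5 CPM in some group, the limit set for naming a gene, was reached by 10 genes, all of them in the COL3A1 gate. The single-cell kit reads 1 end of each transcript, so levels are compared between genes as UMIs without division by length.

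Cluster B held the most. HOXB2, a gene of the hindbrain, was the highest with 72.0 CPM in library 1 (1561 UMIs) and 86.5 in library 2 (1107 UMIs), against 2.65 and 1.69 CPM in all other cells. HOXB8, a gene of the trunk, had 30.6 and 42.4 CPM against 0.93 and 0.44. HOXB6 had 25.3 and 34.0 CPM against 0.67 and 0.33. HOXB3, a hindbrain and neck gene, had 20.2 and 20.0 CPM against 0.88 and 0.60. HOXB5 had 11.4 and 12.8 CPM, and HOXB7 4.48 and 5.78. HOXB1, the most anterior of the cluster, had 2 UMIs in library 1 and none in library 2, and HOXB13, at the other end, none.

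Cluster D was second. HOXD1, its most anterior gene, was at 40.1 CPM (870 UMIs) and 39.8 CPM (509 UMIs), the second highest of all in library 1 and the third in library 2, after HOXB8. HOXD8 followed with 9.5 and 9.8 CPM and HOXD9 with 5.86 and 7.11. HOXD11 had 3.32 and 2.58 CPM, HOXD10 2.45 and 2.34, HOXD3 1.52 and 1.56 and HOXD13, the distal limb gene, 0.23 and 0.31. HOXD3 lies between HOXD1 and HOXD8 on the chromosome and was below both in each library.

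Cluster C reached the limit through HOXC4 alone, with 4.66 and 5.70 CPM, and cluster A through no gene. HOXA2 had 1.38 and 2.34 CPM, HOXA13 0.97 and 1.17, and HOXA9 and HOXA11 none in this gate.

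The ratio of the COL3A1 gate to all other cells differed between the genes. HOXD9 was 136 times as high in library 1 and 256 times in library 2, with 10 and 7 UMIs outside the gate, and HOXD8 100 and 177 times. HOXB2 was 27.2 and 51.2 times as high, HOXD1 28.0 and 37.1 and HOXB3 22.9 and 33.2. HOXC8 was lower, at 8.1 and 13 times. Among the genes with at least 100 UMIs over both libraries, HOXC13 stood apart with a ratio of 0.92 and 0.56.

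**Figure D3:**
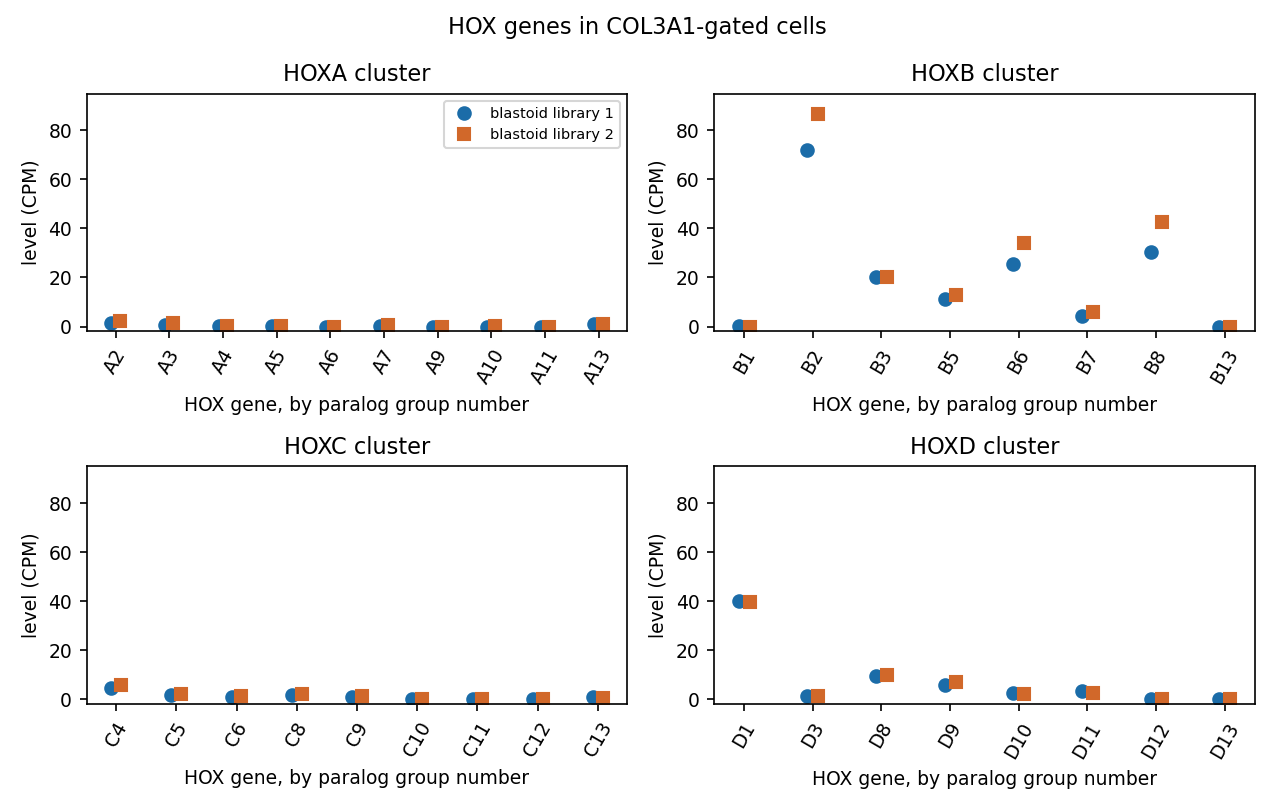
Level of HOX genes in the COL3A1 gate in CPM, 1 panel per cluster with the genes in the order of their paralog numbers and 1 point per library. HOXB2 stands at 72.0 and 86.5 and HOXD1 at 40.1 and 39.8, while no gene drawn of cluster A passes 2.34 and none of cluster C passes 5.70.

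UMIs were summed per library and cell group, and each gate was compared with the mean of the other 6 groups on the log scale by the quasi-likelihood test of edgeR, with p-values adjusted after Benjamini and Hochberg over all genes tested. In the COL3A1 gate 21 of the 36 HOX genes passed an adjusted p of 0.05 as higher, where 21.9% of the 17797 genes tested did, and none as lower (12.1% of all genes tested). None was lower at an unadjusted p under 0.05 or with DESeq2 either. Only 22 of the 36 had enough UMIs to be tested, and without the COL3A1 sums 6 would have had, so most could be tested only because they were high in this gate. The 1 tested gene that did not pass was HOXC13 (adjusted p = 0.156). The calls ran from paralog group 1, with HOXD1, to group 13, with HOXA13 (21 and 15 UMIs in the gate), and no gene of group 12 was tested.

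As the THSD7B gate had no HOX UMI, the fold changes of that fit depend on how zeros are treated, and sizes are given from a comparison added after the data were seen, the COL3A1 gate against all other cells as 1 sum per library. There 23 of the 36 passed as higher, of 26 tested (20.1% of 20073 genes), with HOXA7 and HOXD13 in addition. On the log2 scale HOXB2 was higher by 5.26 ± 0.19 (SE, edgeR adjusted p = 8.7e-07), HOXD1 by 5.07 ± 0.13 (adjusted p = 2.9e-07) and HOXB8 by 5.80 ± 0.30 (adjusted p = 4.4e-06). HOXB3 was higher by 4.83 ± 0.18, HOXB6 by 5.97 ± 0.28, HOXB5 by 5.68 ± 0.17 and HOXC4 by 6.02 ± 0.27, all called. Outside the gate 15 of the 26 were below the count filter and could be tested only because they were high in it, among them HOXD9 (7.55 ± 0.31), HOXD8 (7.07 ± 0.26) and HOXB7 (5.59 ± 0.39). The cells of the COL3A1 gate are a set chosen by 1 transcript and can hold more than 1 cell type.

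The profile along the axis was similar in the libraries. In the COL3A1 gate the paralog groups 1 to 4 held 58.7% and 55.9% of the HOX UMIs, the groups 5 to 8 held 35.3% and 38.6%, and the groups 9 to 13 held 6.07% and 5.52%. By cluster, B held 67.0% and 69.8%, D 25.7% and 22.0%, C 4.60% and 4.76% and A 2.66% and 3.49%. HOXB4, HOXB9 and HOXD4, not analysed here, are in none of these shares.

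Single cells of the gate showed a few HOX genes at a time. Thinned to 9000 UMIs, a cell had a mean of 1.92 HOX genes in library 1 and 2.18 in library 2, a median of 2 and at most 7. The highest paralog group seen in a cell lay in 1 to 4 for 27.8% and 27.0% of the cells, in 5 to 8 for 38.8% and 45.2% and in 9 to 13 for 12.01% and 11.49%, and no HOX UMI was left in 21.4% and 16.3%. At this depth a gene without a UMI in a cell is not shown to be off.

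A part of the COL3A1 gate carried MYL7, a myosin light chain of atrial heart muscle, at 200 CPM or more, 184 cells in library 1 and 115 in library 2. This split was added after the data were seen. The cells with MYL7 had 312 and 381 CPM of HOX genes and those without had 224 and 268, with COL3A1 itself at 1336 and 1348 CPM against 1374 and 1398. The 5 mesenchyme genes stood at 2172 and 2529 CPM with MYL7 against 1761 and 2065 without, and the 6 hypoblast genes at 440.5 and 459 against 299 and 324. GABRP was lower with MYL7, at 75.5 and 15.7 CPM against 214 and 169 without. Their part in the HOX difference was not tested. Of the 36 HOX genes, 3 of 18 tested were higher with MYL7 (2.06% of all genes tested), and all 3 came from the paralog groups 1 to 3. HOXD1 was at 59.4 and 69.0 CPM with MYL7 against 34.3 and 33.1 without, so that the groups did not overlap, a log2 difference of 0.95 ± 0.11 (SE, edgeR adjusted p = 0.0033). HOXB2 was at 105 and 124 against 62.0 and 77.9 CPM (0.75 ± 0.13, adjusted p = 0.016), and HOXB3 at 28.9 and 26.2 against 17.5 and 18.6 CPM (0.68 ± 0.13, adjusted p = 0.028).

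None of the genes above paralog group 3 was called without a replicate block. HOXB8 was at 35.8 and 46.1 CPM with MYL7 against 29.0 and 41.6 without, and the ranges overlapped (0.24 ± 0.19, edgeR adjusted p = 0.53). HOXD8 was at 9.31 and 9.74 against 9.56 and 9.87 CPM (0.01 ± 0.20, adjusted p = 0.99). HOXB5, at 15.8 and 16.5 against 10 and 12 CPM, passed only with the library as a replicate block. HOXC8 was at 0.79 and 0.42 CPM (4 and 1 UMIs) against 1.98 and 2.49 (33 and 26 UMIs) and was not called (adjusted p = 0.14). None was called lower by edgeR, and 1 was lower at an unadjusted p under 0.05, HOXC8. Whether the difference between anterior and trunk genes exceeds the spread was not tested. HOXB3 no longer passed when the sum of library 1 with MYL7 or the one without was left out, which left 2 calls.

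**Figure D4:**
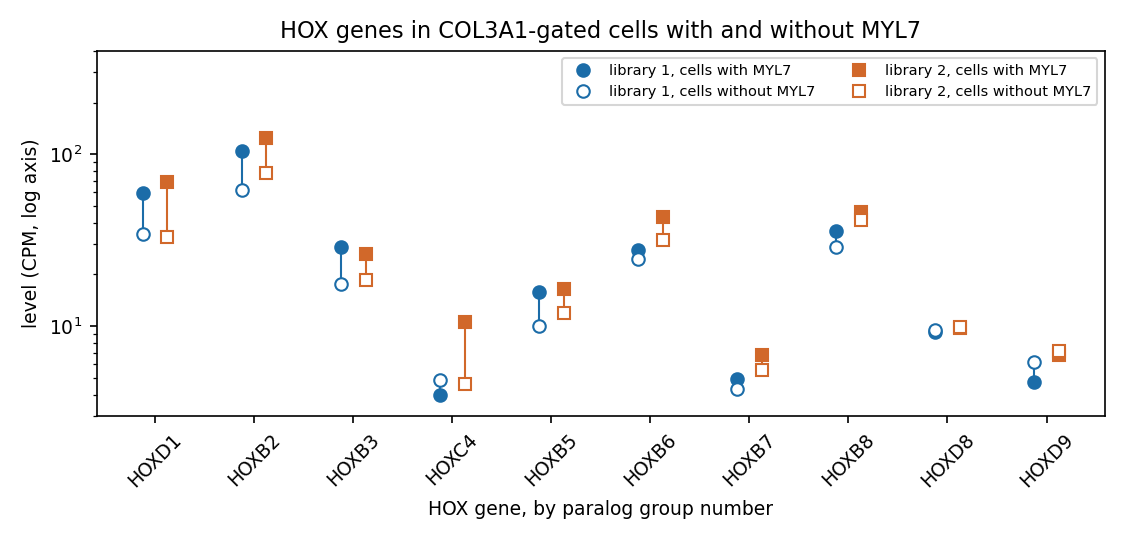
Level of the 10 named HOX genes in cells of the COL3A1 gate with MYL7 (filled) and without it (open), in CPM on a log axis, with a line joining the points of a library. The filled points of HOXD1, HOXB2, HOXB3 and HOXB5 lie above both open ones, those of HOXD8 lie at 9.31 to 9.87 in all 4 sums, and HOXC4 moves in opposite directions in the libraries.

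In the GABRP gate the make-up of the HOX UMIs was another. HOXC13, which lies at the 5′ end of cluster C and is known for its use in skin and hair, was its largest gene in library 1 and the second, after HOXB2 (142 UMIs, 24.9%), in library 2, with 3.18 CPM in library 1 (205 UMIs) and 2.25 in library 2 (136 UMIs), or 31.7% and 23.9% of the HOX UMIs of the gate. HOXC13 is outside the naming limit and was chosen after its values were seen. The next group was the CRABP1 gate with 1.81 and 0.68 CPM (19 and 12 UMIs), then the COL3A1 gate with 1.11 and 0.39, the ungated cells with 0.40 and 0.18 and the POU5F1 gate with 0.09 and 0.06. The GABRP gate, at 2.25 CPM or more, was above every other group with a HOXC13 UMI in both libraries, at 1.81 or less. The SCRG1 and THSD7B gates had none, where 3 UMIs would be 3.65 to 4.83 CPM, so they cannot be ranked against it. The CRABP1 and COL3A1 gates overlapped and rest on 19 and 12 UMIs in the first and 24 and 5 in the second. Empty droplets had 1.22 and 0.85 CPM, from 2 UMIs each.

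In the GABRP gate 2 of the 36 HOX genes passed as higher (26.8% of all genes tested), among them HOXC13 (edgeR adjusted p = 3.7e-05). None passed as lower (19% of all genes tested), also at an unadjusted p under 0.05. The mean of the other groups includes the THSD7B gate, with no HOX UMI, so edgeR could hardly call a HOX gene lower against it. DESeq2 called the same 2 higher and 4 lower (24.5% of all genes tested). Against all other cells as 1 sum per library, 3 passed as higher (21.6%) and 13 as lower (20.1%). The other cells include the COL3A1 gate, and a gene could pass the count filter through them alone. HOXC13 was higher by 3.07 ± 0.40 on the log2 scale (adjusted p = 0.0018) and HOXC8 by 0.97 ± 0.29 (adjusted p = 0.039). HOXC8, at 0.46 and 0.41 CPM in the GABRP gate, was lower there than in the COL3A1 gate in both libraries (1.71 and 2.11 CPM). HOXB2, at 2.21 and 2.34 CPM, was called lower against all other cells and higher against the mean of the other groups at a gate minimum of 400 CPM, so its direction in this gate depends on the comparison.

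HOXC13 was also set against HOXB2 in each group, a pair chosen after their values were seen. Of the UMIs of both genes together, HOXC13 took 58.9% in the GABRP gate of library 1 (exact 95% interval 53.5 to 64.1) and 48.9% in library 2 (42.9 to 55.0). In the COL3A1 gate it took 1.51% and 0.45%, in the ungated cells 10.7% and 8.80%, and in the empty droplets 18.2% (2.28 to 51.8) and 10.0% (1.23 to 31.7), where each rests on 2 HOXC13 UMIs. The part of free RNA in the HOXC13 UMIs of the GABRP gate was not tested. In the CRABP1 gate the share was 63.3% of 30 UMIs and 48.0% of 25.

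**Figure D5:**
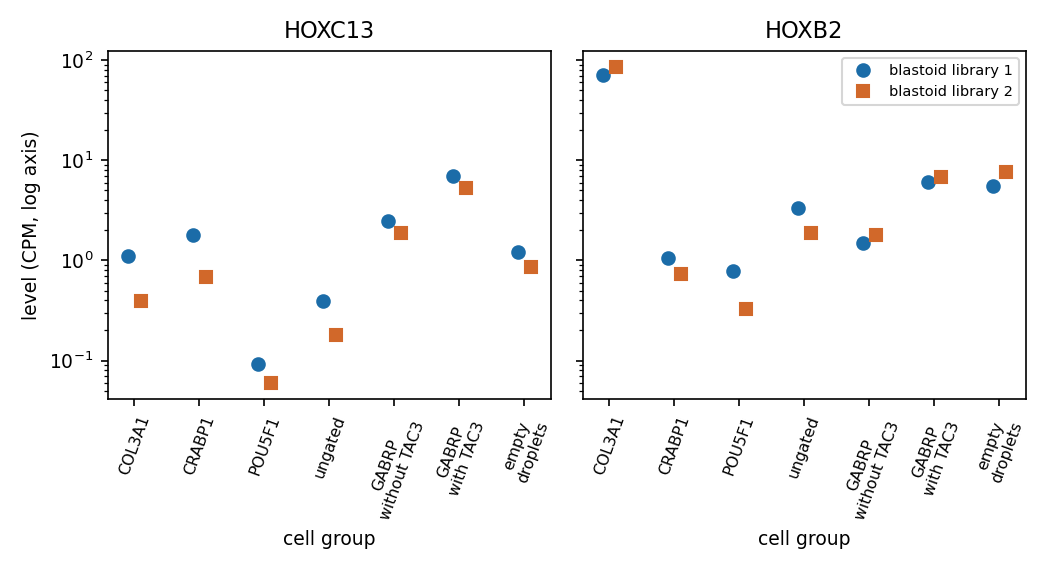
Level of HOXC13 and HOXB2 in CPM on a log axis, by cell group with the GABRP gate split by TAC3, 1 point per library, and the empty droplets on the right of each panel. HOXC13 is highest in the GABRP cells with TAC3, at 6.98 and 5.25, while HOXB2 is highest in the COL3A1 gate, at 72.0 and 86.5. The SCRG1 and THSD7B gates, with no UMI of HOXC13, are not drawn.

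The plot of HOXC13 and HOXB2 by cell group also shows a split within the GABRP gate. There, cells with TAC3, a tachykinin gene used by trophoblast, at 200 CPM or more, 336 and 269 cells, had 22.2 and 22.8 CPM of HOX genes against 7.78 and 7.76 in those without. This split too was added after the data were seen. Of the 36 genes 6 of 8 tested were higher with TAC3 (12.8% of all genes tested), and 2 of these 6, HOXC8 and HOXC9, were below the count filter of the fit in the cells without TAC3 and could be tested only because they were high in those with it. HOXC13 was at 6.98 and 5.25 CPM with TAC3 against 2.48 and 1.87 without, 1.63 ± 0.23 on the log2 scale (edgeR adjusted p = 7.3e-04). HOXB2 was at 6.08 and 6.75 against 1.5 and 1.8 CPM (2.06 ± 0.21, adjusted p = 1.1e-04), and HOXC8 at 1.59 and 1.65 against 0.26 and 0.26 CPM (2.74 ± 0.40, adjusted p = 9.2e-04). HOXB3 (1.70 ± 0.33) and HOXC9 (3.05 ± 0.71, on 5 and 6 UMIs with TAC3) were also called, and HOXD1 and HOXB8 were not (adjusted p = 0.33 and 0.91). The 5 mesenchyme genes moved the same way, 102 and 79.3 CPM with TAC3 against 37.7 and 31.1, as did COL3A1, 39.4 and 27.1 against 13.7 and 8.35. HOXB8, on 4 and 2 UMIs with TAC3, was at 0.40 and 0.30 CPM with it against 0.44 and 0.41 without. The part of the mesenchyme genes and of COL3A1 in the HOX difference was not tested.

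No HOX gene passed as higher in the SCRG1 gate (10.5% of all genes tested), the THSD7B gate (9.65%), the CRABP1 gate (14.7%) or the POU5F1 gate (26.2%) by edgeR. At an unadjusted p under 0.05 there was 1 in the CRABP1 gate, HOXC13, and 0 in the other 3, and DESeq2 called 0 in all 4. HOXC13 passed in the CRABP1 gate with the library as a replicate block and without the sum of library 2. In the POU5F1 gate edgeR called no HOX gene lower, none at an unadjusted p under 0.05, where 19.3% of all genes tested were lower. DESeq2 called 14 lower (24.6%). The mean of the other groups includes the THSD7B gate, with no HOX UMI, so edgeR could hardly call a HOX gene lower against it. No conclusion is drawn from the lack of such calls here or in the CRABP1 gate below. Against all other cells as 1 sum per library, which include the COL3A1 gate, edgeR called 16 of 23 tested lower in the POU5F1 gate (24.4% of all genes tested). In this comparison a gene could pass the count filter through the other cells alone, so the HOX genes tested lean towards lower calls. The same holds for the gates that follow. The POU5F1 gate had 58 and 80 HOX UMIs in all. In the CRABP1 gate edgeR called none lower against the mean of the other groups (8.38%), none at an unadjusted p under 0.05, DESeq2 called 2 (10.7%), and against all other cells edgeR called 9 of 22 lower (12.2%). In the THSD7B gate, which had no HOX UMI, 1 was lower against all other cells (7.4%), HOXB2, and in the SCRG1 gate none (13%), with 2 at an unadjusted p under 0.05.

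Genes of the pathway were followed in lists by their role, each gate of reference being the COL3A1 gate, where 21.9% of all genes tested were higher and 12.1% lower. Of 9 HOX cofactors, the PBX, MEIS and PKNOX genes whose proteins bind DNA together with HOX proteins, 6 were higher and none lower, with a median log2 difference of 0.43 against 0.08 over all genes tested. The 3 others, PBX2 (-0.01 ± 0.07), PBX4 (-0.02 ± 0.08) and PKNOX2 (-0.11 ± 0.09), were not called and had an unadjusted p of 0.22 or more. MEIS1 was at 190 and 180 CPM (1.64 ± 0.07 against the mean of the other groups on the log2 scale, edgeR adjusted p = 1.5e-11), but the GABRP gate had more, 334 and 321 CPM, and the SCRG1 gate 4.86 and 3.89. PKNOX1 (0.82 ± 0.12), MEIS2 (0.79 ± 0.10) and PBX3 (0.52 ± 0.06) followed. PBX3 was at 229 and 239 CPM and higher still in the CRABP1 gate, at 270 and 258. Of the 9 cofactors, 5 were higher and 2 lower in the GABRP gate (26.8% and 19% of all genes tested). The CRABP1 gate had 4 higher and 1 lower (14.7% and 8.38%). The THSD7B gate had 3 higher and 1 lower, the SCRG1 gate 1 and 6 and the POU5F1 gate 0 and 5.

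Of 12 HOX activators, 11 were tested, and 4 were higher and 2 lower, with a median log2 difference of 0.60. In the CRABP1 gate 4 were higher and none lower, with a median of 0.42 (14.7% of all genes tested were higher). The GABRP gate had 3 higher and 1 lower (26.8%) and the POU5F1 gate 2 and 1 (26.2%). The SCRG1 and THSD7B gates had none higher and 1 and 3 lower. CDX2, a caudal factor that opens the trunk HOX genes and is also a trophoblast gene, had 3.69 and 5.78 CPM in the COL3A1 gate (80 and 74 UMIs) and at most 1.22 in any other group. ALDH1A2, which makes retinoic acid, had 3.0 and 4.4 CPM, with 2 UMIs (2.43 CPM) in the SCRG1 gate of library 1 as the next value. RARA, a retinoic acid receptor, was higher by 0.90 ± 0.09 on the log2 scale. CYP26A1, which breaks retinoic acid down and was the 1 tested of 3 such genes, was lower, with a log2 difference of -0.78 ± 0.26 (34.1 and 24.1 CPM against 242 and 224 in the POU5F1 gate). This was not particular to the COL3A1 gate. CYP26A1 was also called lower in the GABRP (-1.02), SCRG1 (-1.60) and THSD7B gates (-2.08). It was called higher in the CRABP1 (1.39) and POU5F1 gates (2.57). T and MSGN1, of the 8 trunk progenitor genes, had no UMI in the COL3A1 gate, 4 of the list were tested, and EOMES alone was called, at 7.80 and 8.59 CPM beside 7.20 and 8.98 in the POU5F1 gate.

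The Polycomb proteins keep HOX clusters silent. Of 14 Polycomb genes 4 were higher and 1 lower in the COL3A1 gate. BMI1 was at 15.3 and 18.0 CPM (1.01 ± 0.13 on the log2 scale) and JARID2 at 152 and 139 (-0.46 ± 0.06), with RING1 (0.53 ± 0.09) and RNF2 (0.36 ± 0.05) higher. The median log2 difference of the list was 0.11, close to the 0.08 of all genes tested. Of 14 head transcription factors, used in front of the HOX domain, 12 were tested, 5 were lower and 1 higher in the COL3A1 gate, with a median log2 difference of -0.48. EMX2 had 0.23 and 0.39 CPM (-2.10 ± 0.45), OTX2 11.4 and 7.89 (-1.38 ± 0.17) and DLX5 33.5 and 22.5 (-1.23 ± 0.14), and LHX2 was higher than the mean of the others (1.07 ± 0.16), at 23.0 and 25.8 CPM beside 204 and 174.2 in the CRABP1 gate. In the CRABP1 gate all 12 tested were higher, where 14.7% of all genes tested were. In the GABRP gate 5 were lower and none higher (19% of all genes tested were lower), with a median log2 difference of -0.61. The SCRG1 gate had 6 lower and none higher (2109 of 17797 genes tested were lower), with a median of -5.25. The POU5F1 gate had 5 higher and 1 lower (26.2% of all genes tested were higher), and the THSD7B gate 2 and none (9.65%). Of 10 fibroblast genes 8 of 9 tested were higher in the COL3A1 gate, with DCN at 329 and 330 CPM and at most 2.73 in any other group.

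Genes that lie near or inside the clusters but carry no HOX name were followed as well. Whether a locus without a name inside the clusters is a HOX gene was not tested. Of 10 genes next to a HOX cluster, 8 were tested in the COL3A1 gate and 5 were higher and 1 lower, with a median log2 difference of 0.44. SKAP1, beside cluster B, had 6.8 and 7.5 CPM (2.16 ± 0.26 on the log2 scale), SKAP2, beside cluster A, 29.4 and 31.0 (1.62 ± 0.11), and CALCOCO1, beside cluster C, 6.37 and 6.72 (0.49 ± 0.16), with the GABRP gate at 7.43 and 7.45. TTLL6, beside cluster B, was lower (-2.05 ± 0.29), at 1.01 and 0.47 CPM. Of 21 genes without a HOX name annotated inside the clusters, 6 were tested and all 6 were called higher in the COL3A1 gate (21.9% of all genes tested), but without the COL3A1 sums 2 would have had enough UMIs to be tested, so the other 4 could be tested only because they were high there. The highest were LOC106505099 in cluster B with 21.4 and 22.8 CPM and LOC106506838 with 16.8 and 22.4, followed by LOC110257186 with 1.71 and 2.27. LOC106506838 was also called in the GABRP gate, at 4.68 and 4.97 CPM. The precursors MIR10A, MIR10B, MIR196A-1, MIR196A-2 and MIR615 had no UMI in the COL3A1, GABRP or CRABP1 gate or in the ungated cells. Whether the kit captures such short RNAs was not tested, so they are not shown to be off.

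The genes most like the summed HOX level over the 14 sums, by Pearson correlation of log2(CPM + 1) among 22290 genes, were HGF (0.98, 20.4 and 21.2 CPM in the COL3A1 gate), WTIP (0.97), IL11RA (0.96), LOC106505099 (0.95), LHB (0.95), PDLIM7 (0.95), LOC110259931 (0.95), MSRB3 (0.95), LOC110256262 (0.94) and CALD1 (0.94). Sums from the same library were prepared together, and the order rests chiefly on the COL3A1 gate against the rest.

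In the pESCs the HOX genes were nearly off. FPKM counts fragments scaled by transcript length and by the fragments mapped, and in a bulk library fewer cells that use a gene and less of its RNA per cell cannot be told apart. None of the 36 reached 1 FPKM in any of the 3 libraries, where 38.5% to 39.7% of 29886 genes did, and 19 were listed at 0 in all 3. The sum over all HOX genes was 0.81 to 1.51 FPKM, a mean of 1.15 ± 0.35 (SD, n = 3). None met the limit for naming, and the highest, chosen after their values were seen, was HOXC8 with 0.19, 0.29 and 0.33 FPKM, followed by HOXC9 with 0.45, 0 and 0.17 and HOXD13 with 0.079, 0.089 and 0.30. HOXB2, HOXB3, HOXB6 and HOXC13 were listed at 0 in all 3 libraries, and HOXD1 was at 0, 0.021 and 0.058 FPKM. The part of RNA from the mouse feeder cells in the pESC values was not tested. FPKM is per length and from other libraries than the UMIs, so the values are not compared with those of the blastoid cells. Pluripotency genes were on, with POU5F1 at 526 ± 105 FPKM, as was the cofactor MEIS3 (36.2 ± 1.43 FPKM), while CDX2 was at 0.064 ± 0.062. CYP26A1 was at 57.7 ± 36.4 FPKM and T at 16.0 ± 21.3, of which 1 library gave 40.6. Of the fibroblast genes COL1A1 was at 4.00 ± 0.44 FPKM, COL3A1 at 0.011 ± 0.010 and POSTN was listed at 0.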

How the data were processed

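Single-cell RNA-seq of 2 blastoid libraries and bulk RNA-seq of 3 pESC libraries were used. The authors aligned the single-cell reads to susScr11 with Cell Ranger (version 7.1.0 in the submitters' notes, which also name Seurat 4.3.0), which left raw UMI counts for every barcode in the deposited tables (counts). The authors trimmed the bulk reads with Trim Galore 0.6.4, mapped them with HISAT2 2.2.1 and computed FPKM with StringTie 2.2.1, deposited as 1 FPKM value per transcript and summed per symbol here, so that depth is unknown. The columns name no individual pESC sample, so the 3 were used as unnumbered replicates. Sources differ on the kits and sequencers.

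All UMIs of a library were 289452283 and 302211552. A cell that passed several gates went to the first of COL3A1, SCRG1, THSD7B, CRABP1, GABRP and POU5F1. Counts were summed per library and group to 14 sums, filtered by filterByExpr, scaled by TMM and tested with edgeR 4.0.16 (R 4.3.3), all groups in 1 fit with 7 residual degrees of freedom and the 6 gate genes left out. DESeq2 1.42.0 was an alternative. Each SE of a log2 difference was taken as the absolute difference over the square root of F from the edgeR test. It is not an SE of a fitted coefficient. Where a group in the fit had no UMI of a gene, as the THSD7B gate for HOX genes, it is not dependable. The scripts were tested on simulated data. CPM are UMIs per 1000000 UMIs of a sum. Tables were made with Python 3.11.15, pandas 2.3.3, numpy 2.4.6 and scipy 1.17.1. HOX genes were named at a mean of 5 CPM in a group or 1 FPKM in all pESC libraries, and up to 4 called members of a list by size of change in the COL3A1 gate. The members, gates and lists were chosen with earlier results of these data known, and the splits by MYL7 and TAC3 and the comparison with all other cells were added after the data were seen. Sums of the same number come from 1 library, which pairs them by construction. The deviations of their genes from the group means correlated from -0.01 to 0.37 over 21 pairs of groups, with a median of 0.08, and 9 pairs were above 0.1. Some genes and sequences are not reported here.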

Additional observations from a re-analysis of the deposited data

How the results depend on the processing

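The count of HOX genes called higher in the COL3A1 gate was 20 to 23 in all 13 alternatives. They varied normalization, test, filters, gate minimum and order, cells of several gates, ungated cells and the replicate block, or took all other cells as 1 sum. Others left out the gate's own sum of 1 library, called without 1 replicate below, and kept all other sums of that library. HOXA3 was lost at a gate minimum of 400 CPM, and HOXA4, HOXA7 or HOXD13 were gained in 3 settings. Without 1 replicate it was 21 to 22, in the GABRP gate 2 to 2 and in the CRABP1 gate 0 to 1. With the library as a replicate block, which pairs the sums, it was 21 in the COL3A1 gate, 2 in the GABRP gate and 1 in the CRABP1 gate (HOXC13), 4 in the MYL7 split and 6 in the TAC3 split, and it changed no call count of the SCRG1, THSD7B and POU5F1 gates, which stayed at 0. At a gate minimum of 400 CPM the GABRP gate had 4, with HOXB2 and HOXC8 in addition. The MYL7 split had 2 to 3 and the TAC3 split 5 to 6 calls when 1 sum was left out. The summed HOX level of the COL3A1 gate, 267 CPM, was 231.5 at a minimum of 100 CPM, 303 at 400 CPM and 313 without cells of several gates. In the other gates the mean level moved by over 1.5 times in the THSD7B gate, from 0 to 2.55 CPM at a minimum of 100 CPM, in the POU5F1 gate, from 2.53 to 1.51 at 400 CPM, and in the SCRG1 gate, from 4.41 to 7.40 at 400 CPM and 9.0 with cells put by their highest marker (4 cells and 1 cell), and in the GABRP gate, 9.72 CPM, it was 7.30 to 13.6. In the COL3A1 gate the share of cells with a HOX UMI, 93.1% as a mean of both libraries, was 81.2% in thinned cells and 86.8% for at least 2 UMIs. In the pESCs 1 HOX gene reached 0.1 FPKM in all libraries, HOXC8, and 4 were above 0. Directions depended on the reference in some gates. The median log2 difference of the HOX genes tested was 0.78 in the GABRP gate, -0.76 with DESeq2 and -1.84 against all other cells, and in the CRABP1 gate 0.48, -1.48 with DESeq2 and -2.32 against all other cells, also -2.32 without replicate 2. HOXB2 in the GABRP gate had a log2 difference of 1.58 ± 1.24 against the mean of the other groups (edgeR adjusted p = 0.33), 2.53 ± 0.85 at a gate minimum of 400 CPM (adjusted p = 0.023) and -1.77 ± 0.23 against all other cells (adjusted p = 0.0019). With 2 libraries of unknown relation, genes under 20 UMIs, groups of about 30 cells and free RNA limit what can be seen, and bulk depth is unknown.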
